A study of Mus musculus with 15 samples.

Results

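The genes followed here through the diets store and release fat in adipocytes: Plin1, Plin4, Cidec, Lipe, Pnpla2, Lpl, Cd36, Fabp4, Dgat2 and Pparg. They were chosen by name, as the rows of the deposited table that carry one of these 10 symbols on the strand of the annotated gene, out of 23589 loci with a gene name. A white adipocyte keeps triglyceride in 1 large droplet coated with perilipins and Cide proteins, takes up fatty acids that lipoprotein lipase frees from circulating lipoproteins, and rebuilds them into triglyceride. During fasting, lipases at the droplet surface release the fatty acids again. The nuclear receptor PPARγ is required for adipocytes to form and drives many of the genes named here.

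The libraries came from male C57BL/6 mice under 3 diets. AL mice were fed ad libitum and were 5 months old, DR mice received 60% of the AL food from 4 months of age for 1 month and were 5 months old, and DR-AL mice went through the same month of DR, were then fed AL for 2 months and were 7 months old. In comparisons with DR-AL, age and diet cannot be told apart. RNA from 5 mice went into each library, so that epididymal fat, liver, colon (intestinal mucosa), hypothalamus and hippocampus gave 1 library per diet each, 15 in all, and no difference between diets has a replicate check. Counts on named loci ranged from 21767088 to 40500130 per library.

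The markers bore out the tissue labels, with limits that touch fat most. All 7 adipocyte identity genes, such as Adipoq and Cfd, had between 2965 and 256450 counts in the fat libraries, and all 6 colon epithelium genes had between 22228 and 185203 counts in the colon libraries. Of 8 hepatocyte genes, 7 were high in liver, while Alb was listed at 0 in every library, liver included. The fat libraries also held transcripts of other organs and cell types, unequally across the diets. Relative to liver of the same diet, the median hepatocyte gene stood at 14.0% in AL fat, at 0.0970% in DR fat and at 0.0180% in DR-AL fat. The 7 testis germ cell genes summed to 4.77 CPM (counts per named-locus total, scaled to a common sum) in AL fat, 583 in DR fat and 2818 in DR-AL fat, the 8 epididymis genes to 908, 3327 and 5309 CPM, the 5 skeletal muscle genes to 101, 469 and 109 CPM, and the 5 smooth muscle genes to 1166, 3453 and 1129 CPM. Most of the skeletal muscle sum in AL and DR-AL fat was 1 gene, with 2455 and 2866 counts, where the lowest gene had 17 and 2. In DR fat all 5 had at least 770 counts. Most of the epididymis sum was also 1 gene, with 22172, 63971 and 125400 counts. The 5 mesothelium genes summed to 124, 243 and 107 CPM. Their part in the values below was not tested, and none of the 3 fat libraries can be left out of its own comparisons.

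Sequence is shown for a pair of genes with several annotated starts, because counts are summed over a locus and do not tell apart the RNAs that begin at each start. Cidec had the largest differences of the set in liver, and Pparg is the regulator. The windows are the 250 bases before a start in RefSeq (GRCm38.p6), 5′ to 3′ on the strand of the gene, and capitals mark TTGCNNAA, a loose form of the C/EBP site, wherever it lay on either strand. The upstream Cidec window is chr6:113435761-113436010 (minus strand), the downstream one is chr6:113434765-113435014 (minus strand), and the Pparg window, before the most downstream of the 3 starts in that table, is chr6:115421816-115422065 (plus strand). No exon in GENCODE M21 overlaps any of them.
Cidec, upstream start: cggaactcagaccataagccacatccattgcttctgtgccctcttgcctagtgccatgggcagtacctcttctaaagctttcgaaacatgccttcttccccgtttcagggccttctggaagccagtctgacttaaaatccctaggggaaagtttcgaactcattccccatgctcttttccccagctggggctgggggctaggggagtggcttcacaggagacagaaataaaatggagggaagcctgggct
Cidec, downstream start: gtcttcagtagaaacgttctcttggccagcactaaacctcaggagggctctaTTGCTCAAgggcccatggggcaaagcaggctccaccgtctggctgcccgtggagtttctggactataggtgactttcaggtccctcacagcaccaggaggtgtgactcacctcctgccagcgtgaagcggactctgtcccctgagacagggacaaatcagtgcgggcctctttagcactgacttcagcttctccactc
Pparg, most downstream start: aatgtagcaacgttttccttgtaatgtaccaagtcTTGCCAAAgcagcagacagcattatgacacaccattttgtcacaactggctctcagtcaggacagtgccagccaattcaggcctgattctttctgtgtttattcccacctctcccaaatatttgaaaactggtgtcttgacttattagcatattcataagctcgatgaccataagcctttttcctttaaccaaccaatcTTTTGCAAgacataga
TTGCNNAA was present in 9.56% of 32851 windows of this length and in 3 of the 11 windows found for 7 of the 10 genes (Cidec, Plin1 and Pparg). Counted from the start, it began at base -198 of the downstream Cidec window, and at bases -215 and -16 of the Pparg window. The direct repeat of AGGTCA with 1 base between the copies, the form of site that PPARγ binds with its partner RXR, was on either strand of 0.0335% of all windows and in none of the 11, which says only that these letters are not in these windows. A match is a description of the letters and not a measured binding site.

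In epididymal fat, 5 of the 10 genes were lower in DR than in AL and 1 was higher. The droplet proteins Plin4 and Cidec, the lipase Lpl and the fatty acid carriers Fabp4 and Cd36 were lower, while Dgat2, which carries out the last step of triglyceride synthesis, was higher. A gene was called different at an adjusted p under 0.05 in a Z test on 2 libraries, if the higher value was also at least 25% above the lower. By that rule 16.6% of the 20382 genes tested in fat were lower in DR and 26.2% higher. The median log2 fold was -0.40 for the 10 genes and 0.04 for all genes tested. At a fold of 2, Dgat2 was higher and Plin4 lower, where 17.3% and 5.60% of all genes were. In bulk tissue, fewer cells of a type and less RNA per cell cannot be told apart.

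After the return to AL feeding, all 10 genes were lower than in AL fat, where 24.7% of all genes were lower and 33.4% higher. The median was -0.70 for the 10 genes against 0.06 for all genes. At a fold of 2, 4 genes were lower (Plin1, Lpl, Fabp4 and Dgat2) and 0 higher, against 7.24% and 24.8% of all genes. Adipocyte identity genes outside the set moved the same way. Of those 7 genes, 4 were lower and none higher in DR, with a median of -0.64, and all 7 were lower in DR-AL, with a median of -1.27. The 10 genes together held 5.13% of the counts in AL fat, 4.01% in DR and 3.25% in DR-AL. Both comparisons use the same AL library.

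**Figure D1:**
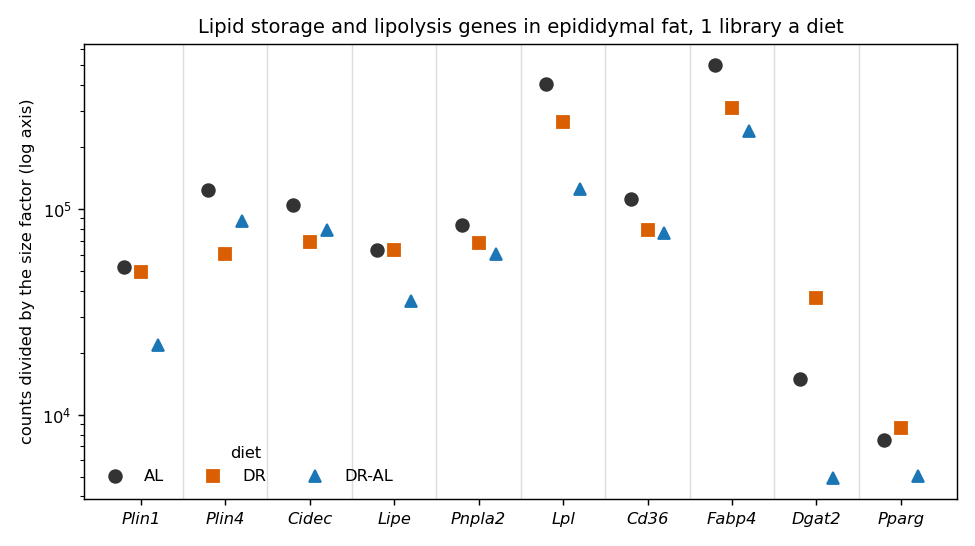
Counts of the 10 genes in epididymal fat divided by the size factor of the library (log axis), 1 library per diet and so without error bars. The DR-AL point lies under the AL point for every gene, and Dgat2 is highest in DR and lowest in DR-AL.

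Among the droplet coat genes, Plin1 and Plin4 took different courses. Plin1 (chr7:79720218-79732903, GRCm38) codes for perilipin 1, the main droplet coat protein of the adipocyte, which holds lipases off until they are activated. Its scaled counts, counts divided by the size factor, were 52527 under AL, 49157 under DR and 21855 under DR-AL. DR-AL was thus low, while DR stood close to AL. The log2 fold was -0.10 in DR (95% interval -0.11 to -0.08), which was not called, and -1.27 in DR-AL (-1.29 to -1.24). Intervals throughout are exact Clopper-Pearson intervals and cover counting error only.

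Plin4 (chr17:56100591-56109803) codes for perilipin 4, which coats small nascent droplets. Its scaled counts were 124013 under AL, 60716 under DR and 87666 under DR-AL, lowest in DR and between the other two in DR-AL. Plin4 was 2.04-fold lower in DR (log2 -1.03, -1.05 to -1.02) and remained 1.41-fold lower in DR-AL. It was the only gene of the set called higher in DR-AL than in DR, 1.44-fold, by these scaled counts. In the FPKM columns, which are scaled differently in fat, that difference was -0.09 on the log2 scale.

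Cidec (chr6:113424634-113435760) codes for the Cide protein that fuses droplets into the single large droplet of white adipocytes. Its scaled counts were 104991 under AL, 68968 under DR and 79177 under DR-AL. Both diets lay under AL, 1.52-fold for DR and 1.33-fold for DR-AL. The difference between DR-AL and DR, 0.20 on the log2 scale (0.18 to 0.21), was under the fold threshold.

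The genes of the droplet lipases were called in DR-AL but not in DR. Pnpla2 (chr7:141455198-141460743), which codes for ATGL, the enzyme that starts the breakdown of triglyceride, had scaled counts of 83215 under AL, 68010 under DR and 60573 under DR-AL. Lipe (chr7:25379527-25398710), which codes for hormone-sensitive lipase, had 63116 under AL, 63481 under DR and 35520 under DR-AL. The log2 folds in DR were -0.29 for Pnpla2 (-0.31 to -0.28) and 0.01 for Lipe (-0.01 to 0.02). In DR-AL, Lipe was 1.78-fold lower than in AL and Pnpla2 1.37-fold lower.

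The genes of fatty acid supply were called lower in both diets. Lpl (chr8:68880491-68907448), which codes for the lipase that frees fatty acids from lipoproteins in the capillary, had scaled counts of 404844 under AL, 264185 under DR and 125875 under DR-AL. It stepped down from AL to DR, 1.53-fold, and from AL to DR-AL, 3.22-fold, the largest fall among the 10 genes in DR-AL. Fabp4 (chr3:10204088-10208576), the fatty acid binding protein of the adipocyte cytosol, had 504034 under AL, 309942 under DR and 239853 under DR-AL, which made it 1.63-fold lower in DR and 2.10-fold lower in DR-AL. Cd36 (chr5:17781690-17888801), the fatty acid translocase of the plasma membrane, had 112140 under AL, 79258 under DR and 76615 under DR-AL. For Cd36 the diets after AL were nearly level, with a log2 difference of -0.05 (-0.06 to -0.03), and both lay under AL, 1.41-fold and 1.46-fold.

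Dgat2 (chr7:99153658-99182719) stood apart from the others in its course. Its scaled counts were 14874 under AL, 37133 under DR and 4906 under DR-AL, so it was the only gene of the 10 highest in DR by a called difference. The gene was 2.50-fold higher in DR (log2 1.32, 1.29 to 1.35), 3.03-fold lower in DR-AL than in AL, and 7.57-fold lower in DR-AL than in DR. The course was the same relative to the summed counts of the 10 genes, a total that itself changed between diets and in which Fabp4 and Lpl held the largest shares. Of that total Dgat2 took 1.01% under AL, 3.68% under DR and 0.666% under DR-AL. Liver expresses Dgat2 too, and its AL liver level at the hepatocyte share of AL fat would be 11.5% of its AL fat level, where the same figure was at most 0.745% for the other 9 genes.

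Pparg (chr6:115360951-115490399), the regulator, had scaled counts of 7503 under AL, 8605 under DR and 5033 under DR-AL. The log2 fold in DR was 0.20 (0.15 to 0.24) and was not called. In DR-AL, Pparg was 1.49-fold lower than in AL and 1.71-fold lower than in DR. Between DR-AL and DR, 6 of the 10 genes were lower and 1 was higher, against 18.6% and 31.6% of all genes. At a fold of 2, Plin1, Lpl and Dgat2 were lower and 0 genes higher, against 5.48% and 18.8%.

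The falls in fat depended on what was held constant. Scaled to 6 adipocyte identity genes (without Lep) instead of to the typical gene, the count for DR-AL against AL turned from 0 higher and 10 lower to 5 higher and 2 lower. Of all 20382 genes tested, 16550 were higher and 744 lower at this scaling, with a median of 1.19 beside 0.43 for the 10 genes. Plin4 was then 0.63 on the log2 scale, Cidec 0.72, Pnpla2 0.67, Cd36 0.58 and Pparg 0.56, and the genes still lower were Lpl at -0.55 and Dgat2 at -0.47, while Plin1 at -0.13, Lipe at 0.30 and Fabp4 at 0.060 were not called. For DR against AL the count turned from 1 higher and 5 lower to 5 higher and 1 lower, with Cidec at 0.051, Lpl at 0.041 and Cd36 at 0.16 not called. In that comparison 13746 of all genes were higher and 1020 lower, with a median of 0.70 beside 0.26 for the 10 genes. With total counts, the median of all genes averaging 10 counts or more moved from -0.00 to 0.34 in DR-AL, and 5 of the 10 genes were called, all lower. Of all genes, 9384 were higher and 2419 lower with total counts.

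Levels can be compared between genes within a library by FPKM, which divides by transcript length. In AL fat, Fabp4 led with 21190 FPKM, followed by Lpl with 2490, Cidec with 1364, Cd36 with 934 and Pnpla2 with 757. Lipe had 527 FPKM, Plin4 436, Plin1 430, Dgat2 182 and Pparg 101. Plin4 and Plin1 were neighbours with nearly the same level. Dgat2 moved from rank 9 in AL to rank 7 in DR, with 307 FPKM, and to rank 10 in DR-AL, with 25.0 FPKM.

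**Figure D2:**
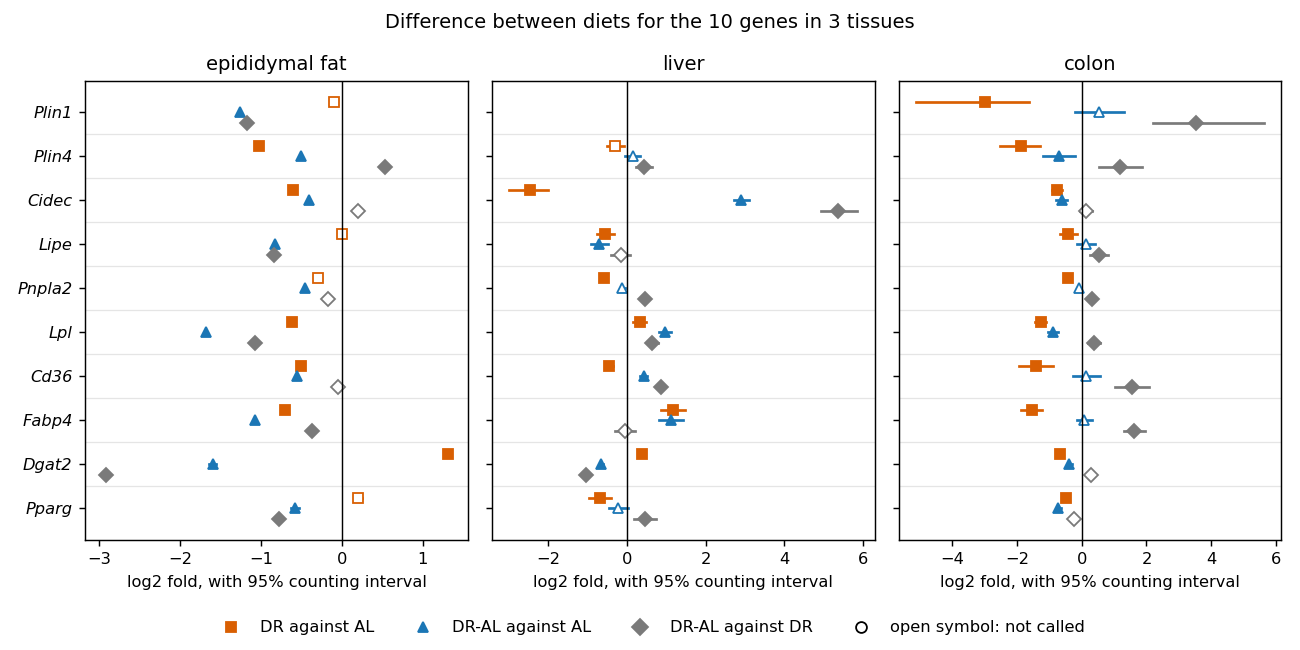
Log2 fold of the 10 genes between diets in fat, liver and colon, with bars for the 95% counting interval and open symbols for genes that were not called; Plin1 in liver is left out because no library there had more than 6 counts. In fat every triangle (DR-AL against AL) lies left of 0, in colon every square (DR against AL) does, and in liver Cidec spans from -2.46 to 5.36.

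The other genes of the pathway were counted by role. Of 63 such genes, 12 were higher and 30 lower in DR fat, and 5 were higher and 44 lower in DR-AL fat. Of all genes, 26.2% were higher and 16.6% lower in DR, and 33.4% and 24.7% in DR-AL. The counts of each list below stand beside the same shares. Scaled to the adipocyte identity genes, the balance turned to 33 higher and 16 lower in DR and to 30 higher and 13 lower in DR-AL. At that scaling 13746 of 20382 genes were higher and 1020 lower in DR, and 16550 and 744 in DR-AL. In triglyceride synthesis, Agpat2, an acyltransferase upstream of Dgat2, had 6017 counts under AL, 19104 under DR and 3364 under DR-AL, and Gpd1, which makes glycerol 3-phosphate from glucose, had 16550, 39619 and 7897. Srebf1, a regulator of lipid synthesis genes, had 5873, 16788 and 5050 counts, and Angptl8, a secreted inhibitor of lipoprotein lipase, had 117, 611 and 25. These 4 genes were higher in DR and lower in DR-AL than in AL, the course of Dgat2, by the scaled counts, with log2 folds in DR of 1.68 for Agpat2, 1.27 for Gpd1, 1.53 for Srebf1 and 2.39 for Angptl8. They were named for the size of their difference in DR, and how many of the 63 genes took this course was not counted.

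Pck1, which supplies glycerol 3-phosphate without glucose, ran the other way in DR. It had 123648 counts under AL, 25021 under DR and 72679 under DR-AL, a 4.90-fold fall in DR and a 2.24-fold fall in DR-AL. Lpin2, a phosphatidate phosphatase, was 4.17-fold lower in DR and 3.64-fold lower in DR-AL. For Pck1 and Lpin2 too, the part of the hepatocyte genes, which fell between the same libraries, was not tested. Over the whole synthesis list of 12 genes, 5 were higher and 3 lower in DR, with a median of 0.17, and 2 were higher and 8 lower in DR-AL, with a median of -0.94. Agpat3 was called in no comparison in fat, at log2 -0.06 in DR and -0.13 in DR-AL.

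Across the lipolysis list of 15 genes, 1 was higher and 9 lower in DR, and 1 was higher and 11 lower in DR-AL. Hcar2, the niacin receptor that restrains lipolysis, was 3.72-fold lower in DR and 4.42-fold lower in DR-AL. G0s2, which inhibits ATGL, was 2.04-fold and 2.61-fold lower, and Npr3, the natriuretic peptide clearance receptor, 1.73-fold and 2.98-fold lower. Aqp7, the channel through which glycerol leaves the adipocyte, fell 2.26-fold in DR and was not called in DR-AL, at log2 -0.29. So, scaled by size factors, inhibitors and effectors of lipolysis both stood among the genes called lower.

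For the droplet coat list of 11 genes, the counts were 3 higher and 5 lower in DR and 2 higher and 6 lower in DR-AL. Cavin1, which forms caveolae, was 1.97-fold lower in DR and 1.68-fold lower in DR-AL. Cidea, the Cide protein of brown fat, had 91 counts under AL, 264 under DR and 126 under DR-AL, and was 2.91-fold higher in DR. Hilpda, which inhibits ATGL when oxygen is low, had 248 counts under AL, 484 under DR and 2466 under DR-AL, and was 7.53-fold higher in DR-AL. Cideb, the Cide protein of liver, was 7.79-fold lower in DR, where the hepatocyte genes were lower too, and their part in this value was not tested.

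Of the 13 genes of fatty acid uptake and lipoprotein lipase handling, 2 were higher and 6 lower in DR, and none was higher and 9 were lower in DR-AL. Genes typical of liver were among the lowest. Slc27a5, a bile acid and fatty acid ligase, had 4508 counts in AL fat, 35 under DR and 4 under DR-AL, and Fabp1, the fatty acid binding protein of liver, had 6535, 119 and 14. The hepatocyte genes fell between the same libraries, and their part in these values was not tested. Lmf1 and Slc27a4 were called in no comparison in fat, at log2 -0.26 and 0.21 in DR and at -0.10 and -0.08 in DR-AL.

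Among 12 other adipocyte transcription factors, 1 was higher and 7 lower in DR, and none was higher and 10 were lower in DR-AL. Ppara, the PPAR that is most abundant in liver, was 4.62-fold lower in DR and 8.23-fold lower in DR-AL. The hepatocyte genes fell between the same libraries, and their part in the Ppara values was not tested. Cebpb and Cebpd, which act early in adipocyte formation, were 2.58-fold and 2.46-fold lower in DR. In DR-AL, Cebpb was 2.33-fold lower and Cebpd was not called, at log2 -0.18. Ppard was called in no comparison, at log2 0.02 and 0.01.

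**Figure D3:**
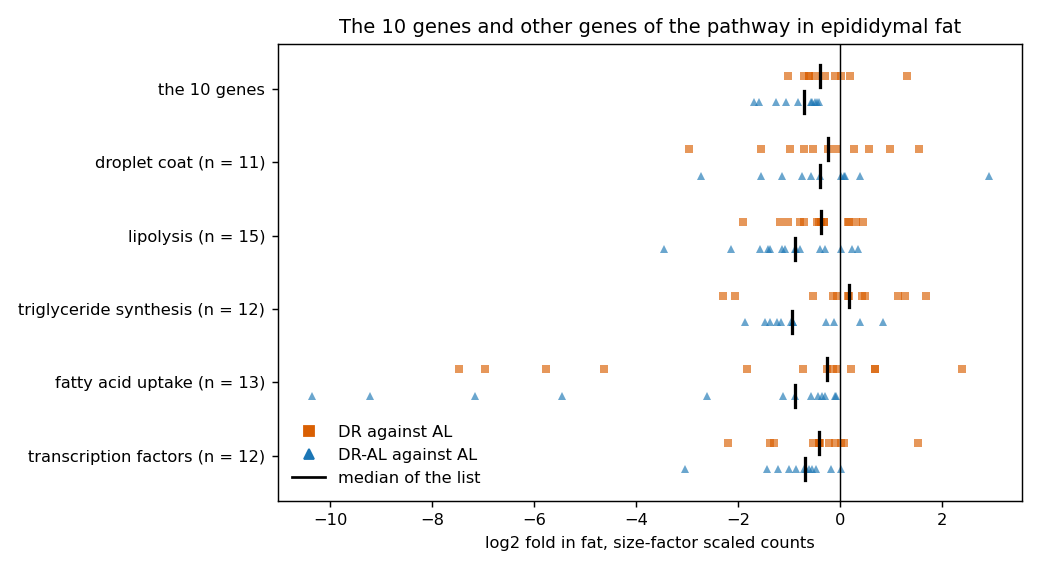
Log2 fold in epididymal fat of the 10 genes and of 63 other pathway genes by role, 1 point per gene, for DR against AL (squares) and DR-AL against AL (triangles), with a line at each median. The triglyceride synthesis median lies at 0.17 in DR and at -0.94 in DR-AL, and the uptake list reaches to -10.37 in DR-AL, at Slc27a5.

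In liver, the largest change of the set was in Cidec, which was lower in DR and higher in DR-AL than in AL. Its counts were 249 under AL, 42 under DR and 1819 under DR-AL, which is 5.49-fold lower in DR (log2 -2.46, -2.98 to -2.00) and 7.47-fold higher in DR-AL (2.90, 2.71 to 3.10). The DR-AL library was 41.0-fold above the DR library (log2 5.36, 4.93 to 5.85). Liver is not a fat-storing tissue in lean animals, and Cidec there is known to go with hepatic fat. Even in DR-AL, its liver level was 2.13% of its level in fat of the same diet (2.03 to 2.23).

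Of the 10 genes, 3 were higher and 5 lower in DR liver, where 14.0% of 17408 genes were higher and 13.7% lower. In DR-AL liver 4 were higher and 2 lower than in AL, against 15.9% and 14.9%. The medians of the 10 genes were -0.36 in DR and 0.29 in DR-AL, beside 0.06 and 0.03 for all genes. Over loci averaging at least 10 counts, which leaves out Plin1, they were -0.43 and 0.15. Between DR-AL and DR, 6 were higher and 1 lower, against 20.9% and 20.0%. At a fold of 2, Fabp4 was higher and Cidec lower in DR, against 5.03% and 3.25% of all genes. At that fold Cidec and Fabp4 were higher and 0 genes lower in DR-AL than in AL, against 4.84% and 3.43%, and Cidec was higher and Dgat2 lower in DR-AL than in DR, against 6.56% and 8.07%.

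The synthesis and uptake genes of liver moved less than Cidec. Dgat2, the most abundant of the set in liver by FPKM, had 10525 counts under AL, 12930 under DR and 6541 under DR-AL, 1.31-fold higher in DR and 1.57-fold lower in DR-AL. Lpl had 555, 651 and 1067 counts, with log2 folds of 0.33 in DR and 0.98 in DR-AL, both called higher. Fabp4 had 127, 268 and 270 counts, 2.25-fold and 2.17-fold higher. Cd36, with 1945, 1340 and 2560 counts, was 1.36-fold lower in DR and 1.35-fold higher in DR-AL.

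The genes of the droplet lipases and Pparg were lower in DR liver. Pnpla2 had 3812 counts under AL, 2404 under DR and 3434 under DR-AL, Lipe 450, 289 and 271, and Pparg 306, 179 and 257. Pnpla2 was 1.48-fold, Lipe 1.46-fold and Pparg 1.60-fold lower in DR, and of these Lipe alone was also called in DR-AL, 1.62-fold lower. Plin4 had 444, 340 and 483 counts and was called against AL in neither diet. Plin1 had 1, 6 and 3 counts, and was not detectable above a count of 0, which allows up to 3 counts, in AL and DR-AL.

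Markers of other cells also differed between the liver libraries. The 7 adipocyte identity genes summed to 2.18 CPM in AL liver, 4.41 under DR and 4.74 under DR-AL, with 3 of them (Adig, Lep and Acvr1c) at 0 in AL and Lep at 0 in DR-AL. The 5 skeletal muscle genes summed to 20.1, 130 and 200 CPM. Adipoq, which defines adipocytes, had 2 counts under AL, 16 under DR and 11 under DR-AL, and Fabp4 in these libraries stood at 0.0292%, 0.10% and 0.104% of its level in fat, beside 0.00185%, 0.0266% and 0.0435% for the median identity gene. The same figure for Cidec was 0.275% under AL, 0.0704% under DR and 2.13% under DR-AL. The part of these cells in the values of the 10 genes in liver was not tested.

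In colon, all 10 genes were lower in DR than in AL, where 10.6% of 18242 genes were lower. None was higher, against 9.01% of all genes. The median was -1.01 for the 10 genes and -0.02 for all genes. After the return to AL feeding 5 of the 10 were still lower than in AL and none was higher, against 7.83% and 6.52%. Compared with DR, 7 were higher in DR-AL and none lower, against 7.30% and 7.14%. At a fold of 2, Plin1, Plin4, Lpl, Fabp4 and Cd36 were lower in DR than in AL, against 3.81% of all genes, with 0 higher, against 1.92%. At that fold 0 genes differed between DR-AL and AL, against 1.51% higher and 2.49% lower, and Plin1, Plin4, Fabp4 and Cd36 were higher in DR-AL than in DR, against 3.06%, the same share as for lower genes.

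The genes of colon differed widely in their share of the level in fat, and 4 of them had shares under 0.1% in AL. Plin1 had 28 counts under AL, 4 under DR and 38 under DR-AL, Plin4 had 94, 32 and 54, Fabp4 had 283, 122 and 280, and Cd36 had 101, 48 and 104. In DR against AL the log2 fold was -3.00 for Plin1 (-5.11 to -1.62), -1.87 for Plin4 (-2.51 to -1.29), -1.54 for Fabp4 (-1.86 to -1.24) and -1.40 for Cd36 (-1.93 to -0.90). Plin4 alone of these was also called lower in DR-AL, at log2 -0.69. In AL colon these 4 stood at 0.0575%, 0.0818%, 0.0606% and 0.0972% of their level in AL fat. The median adipocyte identity gene stood at 0.0658% under AL, 0.0209% under DR and 0.111% under DR-AL, and Adipoq had 71 counts under AL, 22 under DR and 64 under DR-AL. Of the 7 identity genes 4 were lower in DR colon and none higher, with a median of -1.62, and Lep was at 0 in DR. Acvr1c had the highest share of the identity genes, at 3.33%, 5.16% and 4.96% of its level in fat, with 277, 224 and 161 counts. The identity list, Acvr1c included, summed to 20.8 CPM under AL, 10.02 under DR and 19.1 under DR-AL. Its part in the falls of these 4 genes was not tested. Of 5 lymphocyte genes, 4 were lower in DR colon too, with a median of -1.71, and their part was not tested either. Other marker lists went both ways from AL to DR colon. The macrophage list fell from 29.4 to 20.4 CPM and the skeletal muscle list from 11.1 to 8.14 CPM. The endothelium list rose from 19.6 to 25.2 CPM and the smooth muscle list from 53.8 to 70.1 CPM. The fibroblast and adipocyte precursor list rose from 58.3 to 67.7 CPM and the mesothelium list from 2764 to 3899 CPM. Nearly all of the mesothelium sum was 1 gene, with 73327 counts in AL and 130243 in DR, so it describes that gene and not mesothelium. In the macrophage, skeletal muscle and endothelium lists 1 gene also held most counts, with 553, 255 and 393 in AL and 437, 217 and 674 in DR.

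Other members of the set stood far above that share in colon. Pparg, which colon epithelium is known to express, had 3015 counts under AL, 2709 under DR and 1704 under DR-AL, at 43.4%, 23.7% and 30.7% of its level in fat. Dgat2 had 4119, 3257 and 2956 counts, and Pnpla2, the most abundant of the set in colon by FPKM, had 5998, 5689 and 5259. Pparg was 1.40-fold lower in DR and 1.65-fold lower in DR-AL, and Dgat2 1.59-fold and 1.30-fold lower. Pnpla2 was 1.33-fold lower in DR and was not called in DR-AL, at log2 -0.09.

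The remaining 3 genes had intermediate shares. Cidec had 775 counts in AL colon, 575 under DR and 469 under DR-AL, Lpl had 910, 476 and 460, and Lipe had 236, 224 and 241. Cidec was 1.70-fold lower in DR and 1.54-fold lower in DR-AL, and Lpl 2.41-fold and 1.84-fold lower. Lipe was 1.33-fold lower in DR and was not called in DR-AL, at log2 0.13. So the genes that stayed lower in DR-AL colon were Plin4, Cidec, Pparg, Lpl and Dgat2.

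**Figure D4:**
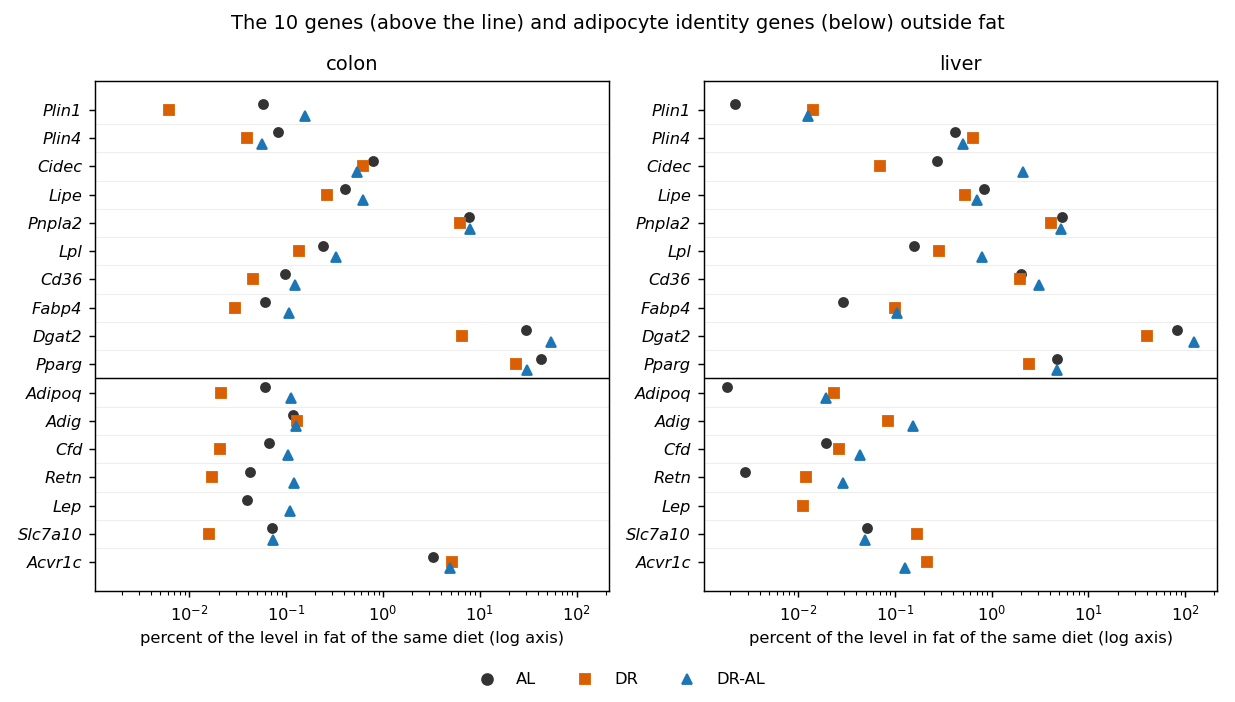
Level in CPM of the 10 genes and of 7 adipocyte identity genes in colon and liver, as a percent of the level in fat of the same diet (log axis); genes at 0 counts have no point. In AL colon Plin1, Plin4, Cd36 and Fabp4 lie among the identity genes, while Plin1 in DR and Plin4 in DR-AL lie left of every identity gene with a point, and Pparg, Dgat2 and Pnpla2 lie far to the right of most of them.

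The other pathway genes were also counted outside fat. In liver 14 of 62 tested were higher and 21 lower in DR, where 27.7% of all genes differed either way, and 20 were higher and 8 lower in DR-AL, where 30.8% did. In colon 2 of 63 were higher and 18 lower in DR, where 19.6% of all genes differed, and 2 were higher and 9 lower in DR-AL, where 14.3% did. The lipolysis list of 15 genes in liver had 6 higher and 5 lower in DR, and the droplet coat list of 11 genes there had none higher and 4 lower in DR, and 5 higher and none lower in DR-AL.

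In the brain regions the 10 genes together held between 0.0109% and 0.0180% of the counts. Plin4 had 513 counts in AL hypothalamus, 575 in DR and 1136 in DR-AL, so that DR-AL stood alone, 2.15-fold above AL (log2 1.10, 0.95 to 1.26). Cd36 had 259, 213 and 139 counts there, 1.35-fold lower in DR and 1.92-fold lower in DR-AL. In all, 1 of the 10 genes was lower and 0 higher in DR hypothalamus, against 2.82% and 4.18% of all genes, and in DR-AL 1 was higher and 3 lower than in AL, against 6.98% and 7.91%. Among the lower calls, that of Cidec rested on 0 counts against 3 and has no fold. Relative to DR, Plin4 was higher in DR-AL and Cd36 and Lpl lower, against 3.40% and 5.82%.

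In hippocampus 2 genes were lower and 0 higher in DR, against 2.61% and 1.39% of all genes, and 2 (Plin4 and Cd36) were higher and 0 lower in DR-AL than in AL, against 3.90% and 2.21%. In DR-AL against DR, Plin4, Lipe and Pnpla2 were higher and 0 genes lower, against 3.47% and 1.33%. Plin4 had scaled counts of 433 under AL, 311 under DR and 595 under DR-AL, 1.39-fold lower in DR and 1.38-fold higher in DR-AL. Pparg had 87, 39 and 36 counts and was 1.70-fold lower in DR. Dgat2 and Lpl were the most abundant of the set by FPKM, with 3405 and 1981 counts in AL, and neither was called between any diets in hippocampus.

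Across tissues, fat led for 9 of the 10 genes. Over the 3 libraries of each tissue, with diet as a term in the quasi-likelihood test of edgeR, 9 of the 10 were higher in fat than in liver, and all 10 were higher in fat than in colon, hypothalamus and hippocampus. The 3 libraries of a tissue differ in diet, so the spread in this test is what the tissue and diet terms leave. Of all 17476 genes tested, 41.6%, 40.4%, 37.4% and 40.1% were higher in fat in these comparisons. Fabp4 was higher in fat than in liver by 9.22 on the log2 scale (SE 0.66, edgeR adjusted p 8.83e-07), and Plin1 by 12.30. Plin1 had 1, 6 and 3 counts in liver and at most 2 in hypothalamus, and Cidec at most 3 in either brain region. Those contrasts rest on the counts in fat and are descriptions. The 10 genes were chosen by name as genes of adipocytes, so a lead of fat follows from that choice and is no test of it.

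Dgat2 was the exception, at log2 -0.51 in fat against liver (SE 0.46, edgeR adjusted p 0.343). Its levels in CPM were 519, 1475 and 216 in fat and 426, 594 and 267 in liver, in the order AL, DR and DR-AL. That test scales by TMM factors, which CPM do not use. The tissues overlapped, and in both DR was highest and DR-AL lowest. Pparg was closest between fat and colon, at 1.23 on the log2 scale (SE 0.23, edgeR adjusted p 0.00068).

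**Figure D5:**
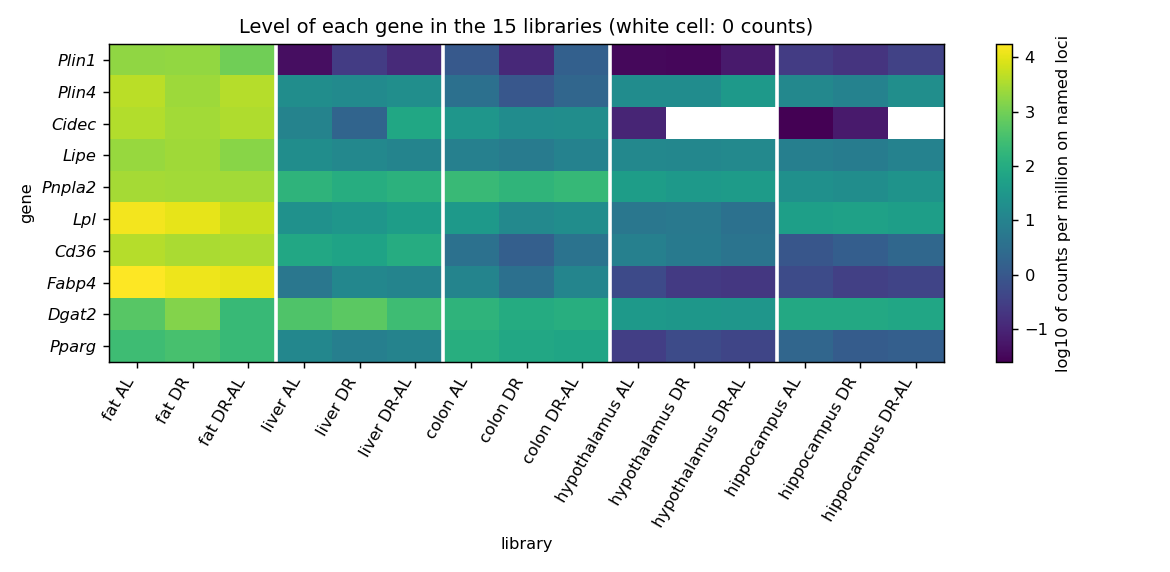
Level of the 10 genes in the 15 libraries, as log10 of CPM (colour), with libraries grouped by tissue and white cells for 0 counts. The fat columns are brightest for every gene but Dgat2, which is close between fat and liver, and Cidec is at 0 in 3 brain libraries.

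A diet difference over all 5 tissues together did not pass the test for any of the 10 genes. In the quasi-likelihood test of edgeR over 15 libraries with tissue as a term, 0 of the 10 passed for DR against AL and 0 for DR-AL against AL, as in DESeq2. At an unadjusted p under 0.05 the counts were 2 (Plin4 and Pnpla2, both lower in DR) and 1 (Pparg, lower in DR-AL). Over all genes 2 and 1 passed, which is 0.0114% and 0.00572%, and 657 and 862 had an unadjusted p under 0.05. Plin4 had a log2 fold of -0.75 in DR (SE 0.27) and Pnpla2 of -0.36 (SE 0.12), each with an edgeR adjusted p of 0.9998, and Pparg had -0.45 in DR-AL (SE 0.20, edgeR adjusted p 0.852). All 5 tissues were harvested from the mice of each diet, so they are not separate cohorts.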

How the data were processed

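RNA of 5 mice per tissue and diet was pooled, depleted of ribosomal RNA and sequenced with the strand kept. The authors trimmed and aligned the reads, removed duplicates and deposited a count and an FPKM value per locus and library, 30 columns in all, which were all used. The methods name mm10, the submitters' processing notes name mm9 and DESeq2. Matched by symbol, 13.6% of the table's positions overlapped GENCODE M21 on GRCm38, so coordinates printed are those of GENCODE, with names, not positions, as the link. The deposited counts are whole numbers without normalization. The deposited FPKM values are per transcript length, and relative to CPM they were 0.604 times as high in DR fat and 0.326 times in DR-AL fat as in AL fat, so levels were compared by FPKM only within a library, and folds of FPKM between libraries stand only as an alternative.

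Counts on named loci were scaled within each tissue by DESeq median-of-ratios size factors (0.915, 0.907 and 1.21 in AL, DR and DR-AL fat), and the Z test of the methods, on square roots with Poisson variance, was run on loci with at least 1 count in the tissue. The planned design replaced the totals of the methods by size factors. The Z test compares 2 libraries and not diets, so its p-values are not printed. A gene was called at a Benjamini-Hochberg adjusted p under 0.05 over all genes tested and a fold of at least 1.25. Log2 folds use a pseudocount of 0.5, added to the counts before division by the size factor, and folds below 1 are given as their inverse. Over the 15 libraries the quasi-likelihood test of edgeR 4.0.16 was run with TMM factors and filterByExpr, with DESeq2 1.42.0 as an alternative, in R 4.3.3. Python 3.11.15, scipy 1.17.1 and pandas 2.3.3 did the rest. Both tests were run on simulated counts, Poisson for the Z test and with a set spread for edgeR. Spread between mice was not part of the Z test simulation, so that simulation does not bear on differences between diets.

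Besides the 10 genes, 63 other pathway genes were counted in 5 lists, and up to 4 per list were named, those called with the largest fold in DR fat and an average of 100 counts or more there, plus those with at least 100 counts in AL fat that were called in no fat comparison. A gene that this rule names is not reported here. Genes and lists were chosen with earlier results of these data known. Rows on the opposite strand of Cidec and Lipe were kept apart. Promoter windows came from RefSeq, with none found for Lpl, Fabp4 and Dgat2. The alternatives were total counts, TMM factors, size factors over widely expressed loci or over adipocyte identity genes, a fold of 2, a filter at a mean of 10 counts, exact tests of edgeR and FPKM with pseudocounts of 0.1 and 1. Depth ranged from 21767088 to 40500130 counts on named loci, so that counting error is small for all but the rarest genes.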

Additional observations from a re-analysis of the deposited data

Results flagged for a closer look

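Several genes were called higher in one tissue and lower in another between the same diets. With 1 library per tissue and diet the difference between tissues was not tested, and each fold is on the log2 scale of size-factor scaled counts.

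Cidec in DR-AL against AL was -0.41 in fat and -0.62 in colon but 2.90 in liver. Lpl was -0.62 in fat, 0.33 in liver and -1.27 in colon for DR against AL, and -1.69, 0.98 and -0.88 for DR-AL against AL. Between DR-AL and DR, Lpl was -1.07 in fat, 0.65 in liver and 0.39 in colon. Fabp4 was -0.70 in fat, 1.17 in liver and -1.54 in colon for DR against AL, -1.07 in fat and 1.12 in liver for DR-AL against AL, and -0.37 in fat and 1.63 in colon for DR-AL against DR. Lpl and Fabp4 were thus lower than AL in fat and higher than AL in liver under both diets.

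Dgat2 in DR against AL was 1.32 in fat and 0.39 in liver but -0.67 in colon. Cd36 in DR-AL against AL was -0.55 in fat and 0.43 in liver. Between DR-AL and DR, Plin1 was -1.17 in fat and 3.53 in colon, where it had 38 and 4 counts, Lipe was -0.84 in fat and 0.54 in colon, and Pparg was -0.77 in fat and 0.46 in liver.

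Rows on the strand opposite to a gene lay outside the comparisons, and a few held more counts than the 3 that a count of 0 allows. The row opposite to Cidec had 131 counts in AL liver, 161 in DR and 137 in DR-AL, where Cidec itself had 249, 42 and 1819. In fat it had 44, 29 and 75 counts, where Cidec had 96018, 62550 and 95459. The row opposite to Lipe had 17, 10 and 19 counts in hypothalamus.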

How the results depend on the processing

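With 1 library per group, calls rest on counting error, and how far they hold shows in the spread allowed. In fat, the counts of genes called for DR against AL, DR-AL against AL and DR-AL against DR (6, 10 and 7) became 2, 4 and 3 at a fold of 2, and 0, 0 and 0 with the exact test of edgeR and a dispersion taken across the 3 diets (a coefficient of variation of 0.731, which includes any effect of diet). FPKM by fold alone gave 10 for DR against AL at both pseudocounts, 1 higher and 9 lower, and total counts gave 5 for DR-AL against AL. Of all 20382 genes, FPKM at a pseudocount of 0.1 gave 3961 higher and 11002 lower in DR, and total counts 9384 higher and 2419 lower in DR-AL. In liver, the same counts (8, 6 and 7) became 2, 2 and 2 at a fold of 2, 0, 1 and 1 with such a dispersion, and 2 and 4 for the first and last with a coefficient of variation of 0.1. In colon (10, 5 and 7) they became 5, 0 and 4 at a fold of 2, 4, 0 and 3 with such a dispersion, and 2 and 3 for DR-AL against AL and against DR with a coefficient of variation of 0.1. Over all genes, such a dispersion gave 3, 1088 and 1 of 20382 in fat, 72, 76 and 153 of 17408 in liver and 235, 62 and 312 of 18242 in colon. The coefficient of 0.1 gave 1465 and 3890 in the same liver comparisons and 328 and 670 in those of colon.

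Scaled to 6 adipocyte identity genes, these calls in fat changed sign. In DR against AL, Cidec became 0.051, Lpl 0.041 and Cd36 0.16. In DR-AL against AL, Plin4 became 0.63, Cidec 0.72, Lipe 0.30, Pnpla2 0.67, Pparg 0.56, Fabp4 0.060, Cd36 0.58, Cavin1 0.39 and Srebf1 0.51. In DR-AL against DR, Fabp4 became 0.10 and G0s2 0.12. Of the 63 other pathway genes, 0 and 3 were called in fat for DR and for DR-AL against AL with a dispersion across the diets, in place of 42 and 49. With FPKM, Plin4 in DR-AL against DR became -0.092 at a pseudocount of 0.1 and -0.091 at 1. Of the calls on all genes in fat, 61.2% were higher in DR with size factors, 77.3% with totals, 93.1% with the identity genes and 26.5% with FPKM at a pseudocount of 0.1, against 57.5%, 79.5%, 95.7% and 22.3% in DR-AL.

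Leaving out a diet in turn (leave-one-out) gave 9 to 10 genes past the threshold for fat against liver, 9 to 10 for fat against colon, and 10 for fat against either brain region. Without the DR libraries Dgat2 passed as lower in fat than in liver, and 1 gene was lost against colon. Leaving out a tissue in turn gave 0 of the 10 genes for both diet comparisons. Over all genes, the 2 and 1 past the threshold for DR and for DR-AL against AL became 22 and 24 with DESeq2 and 8 and 17 without the filter on low counts, none of them among the 10. No paired analysis was possible because the labels carry no replicate numbers and each group is 1 library.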

Other observations

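The genes whose levels over the 15 libraries were most like those of the 10 genes were mostly not lipid genes. By Pearson's r with the mean standardised log2(CPM + 1) of the 10 genes, over 17562 loci, the nearest were Dpt (0.991), Cfd (0.988), Col3a1 (0.984), Fam13a (0.982) and Ccr2 (0.980). Cfd is an adipocyte secretory protein, Dpt and Col3a1 are extracellular matrix genes, and Ccr2 is a chemokine receptor of monocytes. The 15 points fall into the fat libraries and the rest, and r describes that contrast. Among the 10 genes, r with their own mean ran from 0.769 for Dgat2 to 0.996 for Fabp4.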
